A study of Mus musculus with 67 samples.

Results

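The 200 rows described here are the genes whose RNA was most strongly lowered by both of 2 stimuli in wild-type (WT) cultures of mouse microglia. They were taken from 45707 rows of the culture count table. Levels were taken as log2(CPM + 1), where CPM is the count of a row scaled to its library's column sum in the usual way. A row was eligible when its mean in WT cultures was lower than in vehicle by 1.5 or more with each stimulus. This held for 384 rows, and the 200 with the most negative larger value of the 2 differences were kept. The rows were thus chosen by their measured values in the WT culture libraries, and every value that uses those libraries is given as a description without a test. The tables hold counts without gene names. Each row is called by its position in the table, no name was inferred, and no sequence could be matched.

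Cultures were microglia grown from the hippocampus of mice 2 to 5 days old and treated for 6 h with DMSO vehicle, with LPS at 10 ng/ml, or with thapsigargin (Tg) at 0.2 µM plus PDBu at 50 nM. Sorted cells were microglia isolated from whole brain by fluorescence-activated cell sorting. The mice were 10 to 12 weeks old, had received tamoxifen 30 to 35 days earlier, and were given PBS vehicle or LPS at 1 mg/kg, sampled at 6 h or 24 h. WT mice carried floxed Orai1 alleles (Orai1fl/fl), and knockout (KO) mice carried the same alleles with Cx3CR1-cre/ERT2, a tamoxifen-inducible Cre active in cells that express Cx3cr1. All cultures received hydroxytamoxifen at 1 µM and all sorted mice received tamoxifen, in both genotypes. Because WT mice lacked the Cre, loss of Orai1 and presence of the Cre cannot be told apart. Groups comprised 6 WT and 6 KO vehicle cultures, 6 WT and 5 KO cultures with each stimulus, and, among sorted libraries, 6 vehicle libraries of each genotype, 8 WT and 7 KO at 24 h, and 3 WT and 3 KO males at 6 h. The labels do not say which animal or litter each library came from, so p-values measure the spread between these libraries. Names of culture libraries carry a culture number, and most of these numbers recur across treatments within a genotype and sex. The main tests did not use the culture numbers, and a fit that did is given at the end.

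Microglia are the resident immune cells of the brain. At rest they keep a surveillance program of receptors and adhesion molecules, and on inflammatory activation many genes of that program are repressed while cytokine genes are induced. Orai1 forms the pore of the channel through which calcium enters after the stores of the endoplasmic reticulum have emptied. Thapsigargin empties those stores by blocking their calcium pump, PDBu, a phorbol ester, switches on protein kinase C, and LPS is a bacterial lipid recognised by Toll-like receptor 4. Because rows carry no names, which of the lowered rows belong to the resting program was not tested, nor were the markers of microglia or of other cells.

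Culture libraries held 7868694 to 16070721 counts and sorted libraries 4989974 to 7596706. All 200 rows passed the filter on low counts in culture, among 15979 rows tested. In sorted cells 194 of them passed, among 15344 rows tested, and the other 6 had too few counts. The tables were made with different kits from cells of different age and preparation, and a level set across them is a description. There were 3 sorted libraries that stood apart and bear on the results below. In KO male vehicle replicate 3, 104 of the 194 rows (53.6%) had their highest CPM among the 12 vehicle libraries, against 10.9% of all rows tested. In WT male 6 h replicate 3 and KO male 6 h replicate 1, the profile over all rows tested was nearer to vehicle than in the other 6 h libraries. Their Spearman correlations with the mean of vehicle males of the same genotype were 0.965 and 0.963, against 0.915 to 0.927 in the other 4. Rows called higher at 24 h in the opposite genotype had a median of 0.29 and 0.11 above vehicle (log2) in these libraries, against 0.49 to 0.73 in the other 4. Counts of rows called at 24 h and 6 h in sorted cells are given with and without these 3 libraries. The libraries were picked after their values were seen. KO male vehicle replicate 3 was picked by its levels in these rows, and the 6 h libraries by their likeness to vehicle. Leaving them out by itself shifts the counts, so counts without them are descriptions and not a second test.

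In WT cultures, which chose the rows, the median row had 39.6 CPM with vehicle, 6.57 with Tg+PDBu and 6.16 with LPS. Levels with vehicle ranged from 4.06 to 1032 CPM. All 15979 rows tested had a median of 16.5 CPM with vehicle. The difference from vehicle had a median of -2.34 for Tg+PDBu and -2.40 for LPS on the log2(CPM + 1) scale. The summed CPM of the 200 rows was 14512 ± 912 with vehicle (SD, n = 6), 2553 ± 361 with Tg+PDBu (SD, n = 6) and 2569 ± 830 with LPS (SD, n = 6). In this sum the highest stimulated WT library stood at 3762 and the lowest vehicle one at 13422, a gap that the choice of the rows by itself favours. At the edge of the list, row 4147 was the last inside with -2.33 for Tg+PDBu and -1.84 for LPS. Row 6050, with -1.84 and -2.29, was the first outside, and the 184 rows left out had larger values of -1.84 to -1.5.

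**Figure D1:**
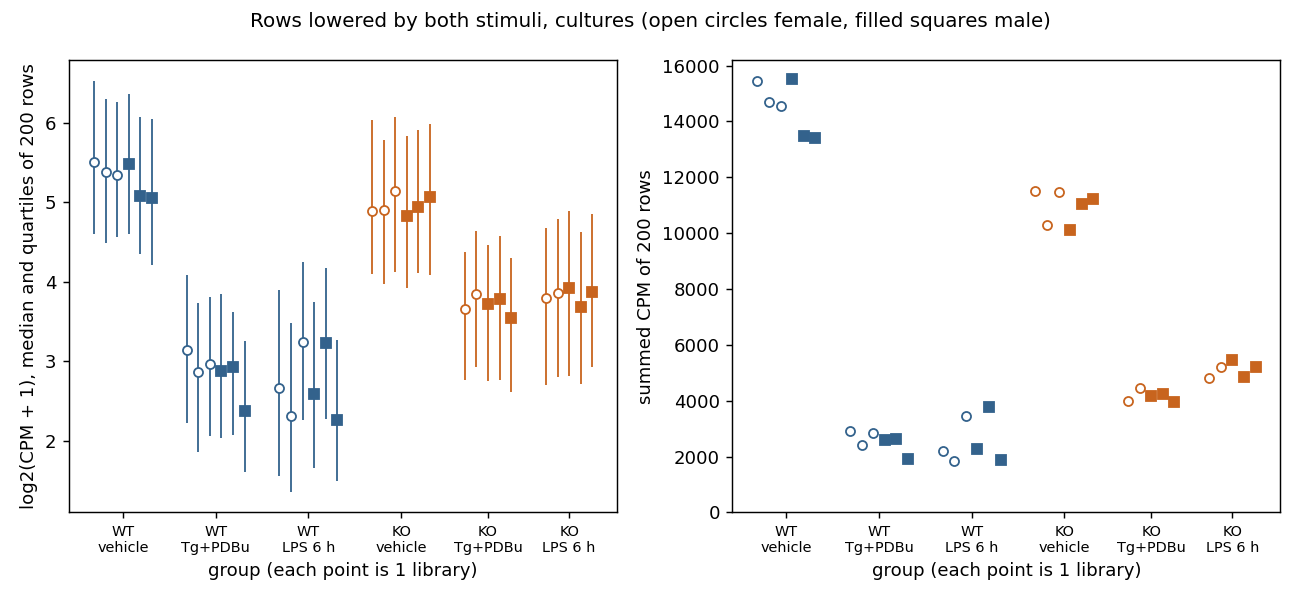
Left, median (point) and quartiles (line) of log2(CPM + 1) over the 200 rows in each culture library; right, their summed CPM, for WT (blue) and KO (orange). Sums in KO cultures were 10120 to 11521 with vehicle, 3959 to 4471 with Tg+PDBu and 4807 to 5464 with LPS; the WT libraries chose the rows.

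In KO cultures, whose values were not used in the choice, most of these rows were lower with each stimulus, and none was called higher. In these bulk samples, fewer cells that express a gene and less of its RNA per cell cannot be told apart. The median row had 30.9 CPM with vehicle, 12.6 with Tg+PDBu and 13.8 with LPS. The summed CPM was 10944 ± 605 with vehicle (SD, n = 6). It was 4167 ± 205 with Tg+PDBu (SD, n = 5) and 5106 ± 272 with LPS (SD, n = 5). Every stimulated KO library lay below every KO vehicle library in this sum, and the Tg+PDBu and LPS libraries did not overlap each other. Libraries of females and males overlapped within each of the 3 treatments.

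With Tg+PDBu against vehicle in KO cultures, 183 of the 200 rows were called lower and 0 higher by the quasi-likelihood F test of edgeR at an adjusted p under 0.05. Among all rows tested, 30.9% were called lower and 17.9% higher. The median log2 fold change was -1.37 over the 200 rows and -0.23 over all rows tested. At an unadjusted p under 0.05, 189 rows were lower and 0 higher, and DESeq2 and limma voom also called 0 higher. The 17 rows not called had log2 fold changes of -1.88 to -0.00, a median standard error of 0.31 and a median of 15.2 CPM with vehicle, against 0.26 and 32.7 CPM in the 183 called. In 166 rows (83%) every Tg+PDBu library lay below every vehicle library, as in 19.9% of all rows tested. On the scale of the choice, 69 rows (34.5%) reached -1.5 or lower in KO cultures, against 2.82% of all rows tested.

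With LPS against vehicle in KO cultures, 164 of the 200 rows were called lower and 0 higher by edgeR. The background was 14.1% lower and 8.71% higher among all rows tested. The median log2 fold change was -1.10, against -0.14 over all rows tested. At an unadjusted p under 0.05, 190 rows were lower and 0 higher, and DESeq2 and limma voom again called 0 higher. The 36 rows not called ran from -2.53 to 0.07, and 35 of them had a negative value. Their median standard error was 0.34, against 0.25 in the 164 called. Unlike with Tg+PDBu, their median level with vehicle was not lower, at 32.2 CPM against 29.5 CPM. In 160 rows (80%) every LPS library lay below every vehicle library, as in 11.1% of all rows tested. The limit of -1.5 was reached in 49 rows (24.5%), against 0.726% of all rows tested. Both KO contrasts use the same vehicle libraries, so their counts are not independent.

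The scaling of the libraries moved these values. With the RLE size factors in place of TMM, the median over all rows tested shifted to -0.10 for Tg+PDBu and -0.03 for LPS. The medians of the 200 rows became -1.24 and -0.99, with 174 and 154 rows called lower and 0 higher. With RLE 199 of the 200 rows had a negative value for each stimulus, against 200 and 199 with TMM. Over all rows tested, RLE gave 3862 lower and 3535 higher with Tg+PDBu in place of 4940 and 2862, and 1461 lower and 1919 higher with LPS in place of 2256 and 1391.

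Set beside the WT values that chose the rows, the KO differences were smaller in 188 of 200 rows for Tg+PDBu and in 197 for LPS. Their medians in KO cultures were -1.26 and -1.06 on the log2(CPM + 1) scale. The KO vehicle mean lay below the WT vehicle mean in 163 rows. Choosing rows by extreme WT values by itself favours smaller KO differences, and no test of the genotype was made here. Over the 200 rows, the Spearman correlation of the WT and KO differences was 0.43 for Tg+PDBu and 0.51 for LPS, where rows share libraries within a genotype.

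**Figure D2:**
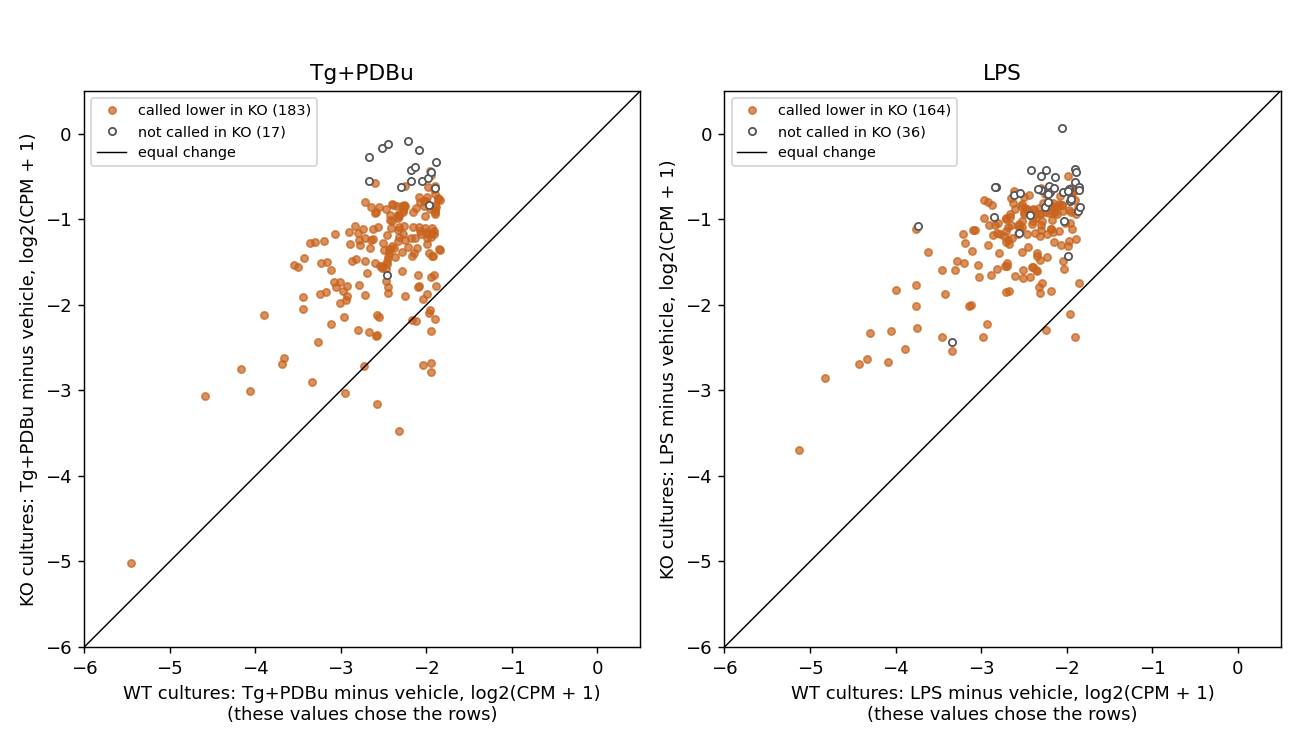
Each point is 1 of the 200 rows, with its change from vehicle in WT cultures (x axis) and KO cultures (y axis) on the log2(CPM + 1) scale; filled points were called lower in KO by edgeR and open points were not. Points above the diagonal had a smaller fall in KO, which held for 188 rows with Tg+PDBu and 197 with LPS; the WT values chose the rows.

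Row 7999, first by the rule, had 20.2 to 72.1 CPM in WT vehicle cultures (median 40.6) and at most 1.59 and 1.87 CPM with Tg+PDBu and LPS. In KO vehicle cultures it ranged from 9.57 to 15.4 CPM with a median of 12.2. The 5 KO Tg+PDBu cultures had 0, 1.46, 0.328, 0.809 and 0.743 CPM, all below every KO vehicle culture. Its log2 fold change was -4.20 (SE 0.68, edgeR adjusted p 1.45e-05). The 5 KO LPS cultures had 0.977, 0.381, 0.444, 0.539 and 5.42 CPM, where male replicate 3 stood above the other 4 and still below vehicle. The LPS fold change was -3.38 (SE 0.66, edgeR adjusted p 0.000356).

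Row 4892, second by the rule, was less variable. It had 140 to 190 CPM in WT vehicle cultures and 116 to 179 CPM in KO vehicle cultures, with medians of 168 and 121. The KO Tg+PDBu cultures had 18.7, 29.6, 16.8, 21.7 and 15 CPM, and the KO LPS cultures 30.8, 17.7, 25.4, 19.6 and 21.1. Neither stimulus overlapped vehicle, and the 2 stimuli overlapped each other. The log2 fold changes were -2.75 (SE 0.22, edgeR adjusted p 1.89e-10) with Tg+PDBu and -2.50 (SE 0.22, edgeR adjusted p 2.22e-09) with LPS.

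The 2 rows with the most counts in WT vehicle cultures were rows 4926 and 8373. Row 4926 had 794 to 1162 CPM in KO vehicle cultures (median 952) and 525.9, 365, 450, 489 and 408 CPM in KO Tg+PDBu cultures. The LPS cultures, at 447, 571, 672, 611 and 570 CPM, lay below vehicle too. Row 8373 had 575 to 919 CPM in KO vehicle cultures (median 638), 139, 183, 117, 167 and 156 with Tg+PDBu, and 405, 325, 269, 296 and 321 with LPS. For row 8373 the 2 stimuli did not overlap, and for row 4926 they did. Row 8373 fell by 2.17 on the log2 scale with Tg+PDBu (SE 0.17, edgeR adjusted p 9.03e-11) and by 0.99 with LPS (SE 0.16, edgeR adjusted p 3.13e-05).

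Of the rows called with Tg+PDBu in KO cultures, row 15292 had the most negative fold change. It had 163, 81.7, 197, 123, 97.6 and 147 CPM in the KO vehicle cultures, and 1.86, 8.67, 2.54, 3.75 and 1.27 CPM with Tg+PDBu. Its log2 fold change was -5.22 (SE 0.39, edgeR adjusted p 6.49e-11). With LPS it had 81.2, 47.4, 52.7, 50.7 and 32.9 CPM, between the other 2 treatments, and a change of -1.28 (SE 0.30, edgeR adjusted p 0.0027). In WT cultures, where the choice of the rows fixed vehicle as the highest, LPS also lay above Tg+PDBu. The WT means were 315 ± 100 CPM for vehicle (SD, n = 6), 57.2 ± 20.1 for LPS (SD, n = 6) and 6.16 ± 1.88 for Tg+PDBu (SD, n = 6).

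With LPS in KO cultures, rows 11032 and 20036 had the most negative changes. Row 11032 was a row of few counts, at 6.01 to 10.2 CPM with vehicle (median 7.14) and 0.651, 0.508, 0.296, 0.231 and 0.602 CPM with LPS. It changed by -3.97 (SE 0.47, edgeR adjusted p 4.70e-07). Row 20036 had 139 to 222 CPM with vehicle (median 172) and 15.7, 12.7, 9.17, 10.0 and 17.1 CPM with LPS, a change of -3.72 (SE 0.42, edgeR adjusted p 1.69e-07). Its KO Tg+PDBu cultures had 16.2, 65.2, 21.0, 20.7 and 18.7 CPM, with female replicate 2 above the rest. In WT cultures the stimuli differed more, at 83.7 ± 23.0 CPM with Tg+PDBu (SD, n = 6) and 10.6 ± 9.25 with LPS (SD, n = 6), without overlap.

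Compared directly in KO cultures, Tg+PDBu left 47 of the 200 rows lower than LPS and 10 higher by edgeR. Among all rows tested 22.6% were lower and 18.8% higher, so the share of lower calls was near the background and that of higher calls below it. The count of lower rows was 31 without KO female Tg+PDBu replicate 1. The median difference was -0.24, against -0.10 over all rows tested. Besides row 15292 (-3.94, SE 0.38, edgeR adjusted p 4.45e-09), row 62 was lower by this measure, at -2.07 (SE 0.50, edgeR adjusted p 0.00148). It had 6.35, 5.23, 7.96, 11.4 and 10.1 CPM with Tg+PDBu and 18.2, 36.5, 25.9, 38.4 and 34.2 with LPS. The KO vehicle cultures of row 62 had 34.2 to 134 CPM, a range that overlaps LPS. Row 86 was higher with Tg+PDBu by 1.58 (SE 0.31, edgeR adjusted p 0.000152). Its 5 Tg+PDBu cultures had 8.76, 10.8, 6.73, 9.56 and 14.1 CPM, within the vehicle range of 7.07 to 18.9 apart from 1 library, and its LPS cultures had 2.39, 4.45, 2.07, 2.69 and 4.10. Row 20280 was higher by 1.13 (SE 0.25, edgeR adjusted p 0.000524), with 14.2, 17.4, 13.7, 18.6 and 12.1 CPM against 6.51, 7.37, 5.40, 6.62 and 6.75, and 30.4 to 42.1 with vehicle.

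Male and female KO vehicle cultures were not distinguished in single rows at an adjusted p under 0.05. By edgeR 0 rows were called lower and 0 higher in males, as among all rows tested (0% in each direction). At an unadjusted p under 0.05 edgeR had 1 row in each direction, and DESeq2 and limma voom called 0 of the 200 rows. By limma voom, 25 rows were lower and 2 higher in males at an unadjusted p under 0.05, against 999 and 1296 of 15979 rows tested. By edgeR 144 of the 200 rows had a negative value, against 7463 of the 15979, with medians of -0.13 and 0.02. A count of 0 does not show equal levels, since the median standard error in a single row was 0.33.

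In sorted cells at rest the rows were less uniform. The row order of both tables was the same as far as it could be checked, since mean levels correlated at a Spearman value of 0.847 over 26168 rows in register and at 0.384 to 0.407 when 1 table was moved by 1 to 3 rows. In sorted WT vehicle libraries 108 of the 200 rows were under 10 CPM and 34 were over 100 CPM. The CPM was lower than in WT vehicle cultures in 148 rows. The 5 rows with the most counts held 47.2% of the summed CPM of the 200, against 19.8% for the 5 leading rows in WT vehicle cultures. The leading sorted row was row 15292, at 3926.5 to 4501 CPM with a median of 4206. Row 7999 had 1473 to 1930 CPM there with a median of 1652, far above its culture range. CPM is not corrected for gene length, so these values are shares of counts and not an order of expression.

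After LPS for 24 h the summed CPM of the 200 rows was lower in both genotypes. It was 20172 ± 610 in WT vehicle libraries (SD, n = 6) and 14122 ± 795 at 24 h (SD, n = 8). In KO it was 18980 ± 1285 with vehicle (SD, n = 6) and 13451 ± 808 at 24 h (SD, n = 7). The groups did not overlap in either genotype, with highest 24 h sums of 15960 in WT and 14736 in KO against lowest vehicle sums of 19302 and 17661. The median over rows did not follow the sum, at 3.20 to 3.49 with vehicle and 3.08 to 3.94 at 24 h in WT on the log2(CPM + 1) scale.

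**Figure D3:**
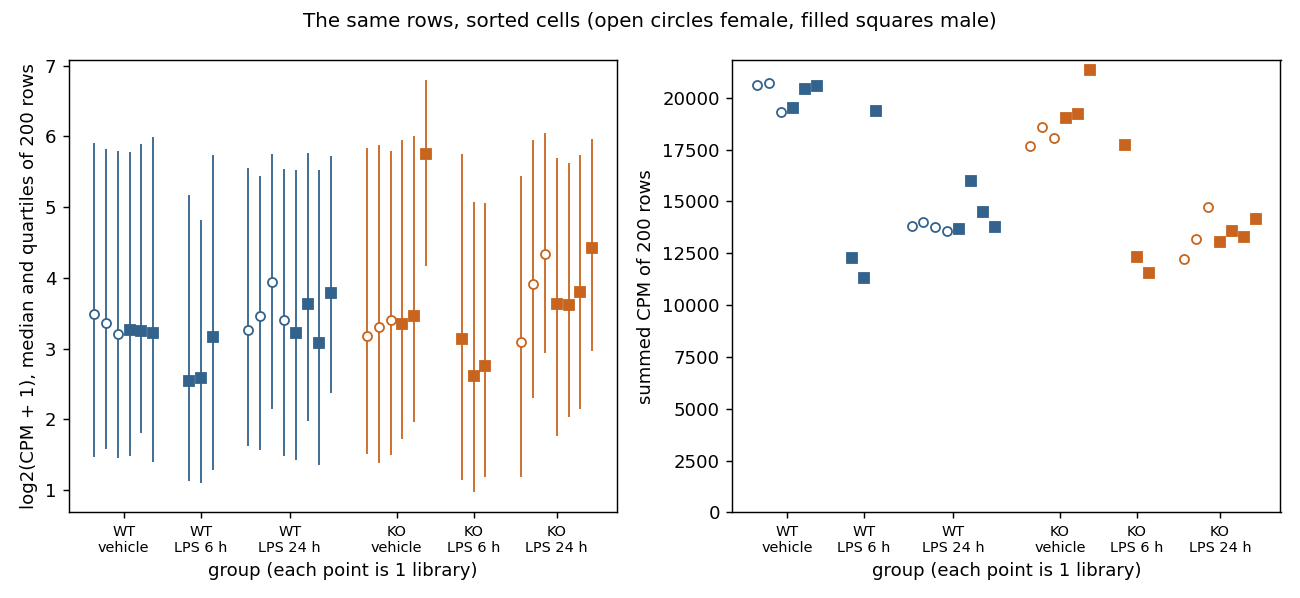
Left, median (point) and quartiles (line) of log2(CPM + 1) over the 200 rows in each sorted library; right, their summed CPM, for WT (blue) and KO (orange). Sums at 24 h lay below every vehicle sum. KO male vehicle replicate 3 has a median of 5.75 against 3.18 to 3.46 in the other KO vehicle libraries. At 6 h, 1 library of each genotype has a sum within the vehicle range of both sexes together, 19372 in WT and 17715 in KO.

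Row by row, the 24 h response went in both directions. In sorted WT cells 38 of 194 rows were called lower and 28 higher by edgeR, where 11.9% of all rows tested were lower and 14.1% higher. The members' shares were 19.6% lower, above the background, and 14.4% higher, near it. In sorted KO cells 32 rows were lower and 23 higher, against 10.8% and 12.6% of all rows tested. The median log2 fold change was 0.03 in WT and -0.13 in KO, beside 0.00 and -0.01 over all rows tested. Both medians turned sign with limma voom, to -0.03 in WT and 0.05 in KO. The KO median was 0.18 without KO male vehicle replicate 3.

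Without the 3 libraries that stood apart, sorted WT cells had 49 of 196 rows lower and 31 higher, against 13.1% and 15.2% of all rows tested. Sorted KO cells then had 41 lower and 44 higher, against 11.7% and 14.4%. The median log2 fold change was then 0.04 in WT and 0.20 in KO. Leaving out KO male vehicle replicate 3 alone moved the count of higher rows in KO from 23 to 43, and to 14 when replicate 1 or replicate 2 of that group was left out instead. Sorted vehicle and 24 h libraries carry numbers from 3299 to 3315, called the first run here, or from 3376 to 3402, the second. The labels do not say what these numbers mark. Within the first run of library numbers KO had 12 higher rows and within the second, which holds KO male vehicle replicate 3, 15.

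Many calls were made in both genotypes, among these rows as among all rows tested. Of the lower rows 27 were called in both, which is 71.1% of those of WT and 84.4% of those of KO, beside 64.6% and 70.9% over all rows tested. Of the higher rows 19 were called in both, 67.9% of those of WT and 82.6% of those of KO, beside 70.8% and 79.0% over all rows tested. Calls in opposite directions numbered 0. Without the 3 libraries, 37 lower rows were shared (75.5% of those of WT and 90.2% of those of KO) and 28 higher rows (90.3% and 63.6%). Over all rows tested the shares were then 66.5% and 74.5% for lower rows and 74.0% and 78.1% for higher rows. Over 194 rows the Spearman correlation of the WT and KO fold changes was 0.78, where rows share libraries.

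The difference between genotypes in the 24 h response was tested as an interaction. By edgeR 0 of 194 rows differed in either direction, as among all rows tested (0%). At an unadjusted p under 0.05 there was 1 row lower and 1 higher, and DESeq2 and limma voom called 0 of these rows. The count was also 0 without the 3 libraries. A count of 0 does not show that the responses are equal, since the median standard error of this difference in a single row was 0.58 on the log2 scale.

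**Figure D4:**
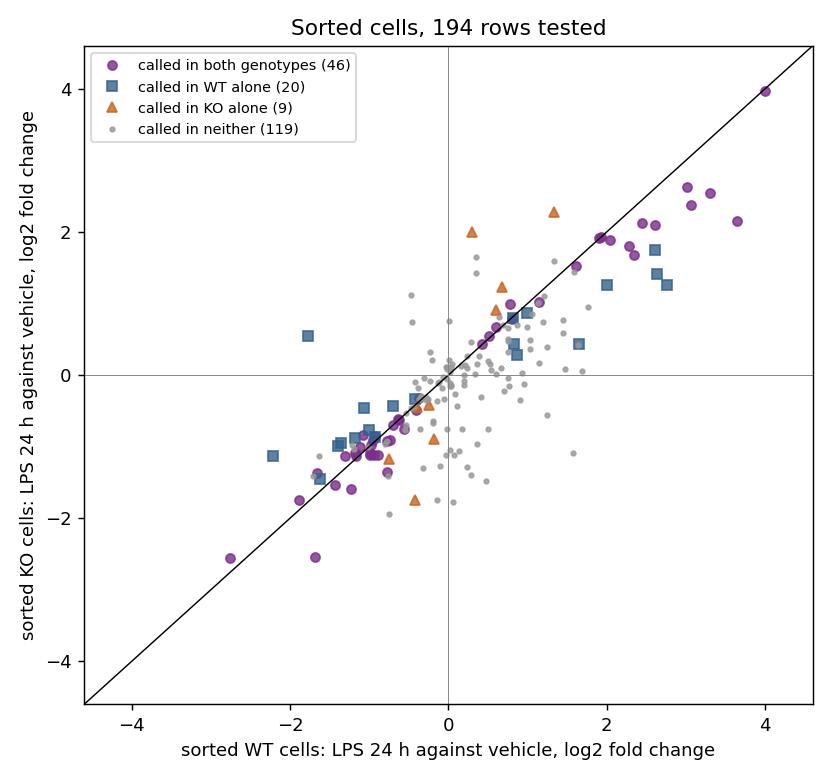
Each point is 1 of 194 rows tested in sorted cells, with its log2 fold change at LPS 24 h against vehicle in WT (x axis) and KO (y axis); symbols give the calls by edgeR. Of the 46 rows called in both genotypes 27 were lower and 19 higher, and 0 rows were called lower in one genotype and higher in the other.

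In KO cultures the 38 rows called lower at 24 h in sorted WT cells had a median log2 fold change of -1.64 with Tg+PDBu and -1.23 with LPS, and the 28 called higher had -1.37 and -1.01.

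Row 11835 was the clearest of the lower rows. It had 594 to 717 CPM in sorted WT vehicle libraries (median 671) and 56.5 to 213 at 24 h (median 72.2), without overlap. In KO it had 480 to 802 CPM with vehicle (median 698) and 45.8 to 171 at 24 h (median 111). Its log2 fold changes were -2.75 in WT (SE 0.50, edgeR adjusted p 0.000134) and -2.56 in KO (SE 0.52, edgeR adjusted p 0.000646). In vehicle cultures the same row was near 8 CPM, with a WT mean of 8.16 ± 3.24 (SD, n = 6).

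Rows 8383 and 11032 were lower rows with few counts. Row 8383 had 4.01 to 7.90 CPM in WT vehicle libraries (median 6.03) and 0.976 to 1.79 at 24 h, a change of -1.89 (SE 0.50, edgeR adjusted p 0.00544). Row 11032, among the most lowered by LPS in KO cultures, had 6.84 to 15.8 CPM in KO vehicle libraries (median 9.02) and 0.853 to 2.37 at 24 h. Its change was -2.54 (SE 0.47, edgeR adjusted p 0.000221). Row 7999, first by the rule, was lower by a smaller amount in sorted cells, at -0.41 in WT (SE 0.14, edgeR adjusted p 0.0331) and -0.49 in KO (SE 0.15, edgeR adjusted p 0.0156). Its WT range at 24 h was 1008 to 1323 CPM, below every vehicle library.

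Among the higher rows, row 11743 had 0 to 0.935 CPM in WT vehicle libraries (median 0.400) and 1.95 to 11.3 at 24 h (median 5.70). In KO it had 0 to 0.509 CPM with vehicle and 2.39 to 9.79 at 24 h. Its log2 fold changes were 4.00 in WT (SE 0.71, edgeR adjusted p 0.000111) and 3.97 in KO (SE 0.73, edgeR adjusted p 0.000215). Row 10500 had 2.96 to 6.38 CPM in WT vehicle libraries (median 3.58) and 30.2 to 65.8 at 24 h (median 47.2), a change of 3.65 (SE 0.49, edgeR adjusted p 3.91e-06). In the KO vehicle libraries it had 2.15 to 9.17 CPM apart from male replicate 3, which had 79.4. Row 4815, called in KO with 2.62 (SE 0.63, edgeR adjusted p 0.00284), had 1.84 to 5.43 CPM in 5 KO vehicle libraries, 68.4 in male replicate 3, and 7.07 to 103 at 24 h.

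KO male vehicle replicate 3 divided the 200 rows. In 105 of them (104 of the 194 tested) it was the highest of the 12 vehicle libraries, a division made after the values were seen and given without a test. The 105 rows had a median log2(CPM + 1) of 1.82 to 2.69 in the other 11 vehicle libraries. Their median in the WT libraries at 24 h was 1.66 to 3.14, and in the KO libraries 1.84 to 4.05. In KO the 24 h libraries of the first run of library numbers had 1.84 to 3.06 and those of the second run 3.16 to 4.05. In WT the runs overlapped, at 1.66 to 2.71 and 2.09 to 3.14. Whether the run bears on these levels was not tested. The other 95 rows had a median of 5.49 to 5.90 in those 11 vehicle libraries and 4.82 to 5.37 at 24 h. Of the 28 rows higher at 24 h in WT, 23 were among the 105, whereas 4 of the 38 lower rows were. Without the 3 libraries these counts were 26 of 31 and 6 of 49. In cultures the 105 rows were not low, with medians of 5.01 to 5.87 in WT vehicle and 4.70 to 5.16 in KO vehicle libraries. Markers of other cells could not be looked up, and their part in this pattern was not tested.

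**Figure D5:**
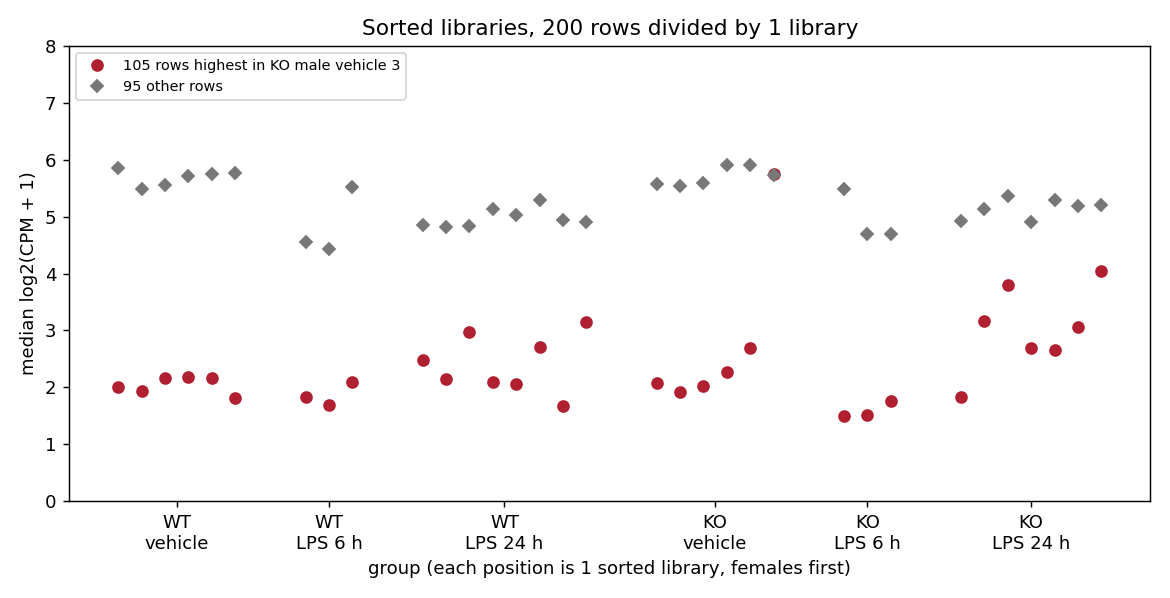
Median log2(CPM + 1) in each sorted library of the 105 rows highest in KO male vehicle replicate 3 among vehicle libraries (red circles) and of the other 95 rows (grey diamonds), females first in each group. In that library both medians stand near 5.75, whereas the red medians in the other vehicle libraries run from 1.82 to 2.69.

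Mice at 6 h were males alone. Their libraries carry numbers from a separate range, so time and that range cannot be told apart. In WT 12 rows were lower and 2 higher than vehicle by edgeR, against 3.73% and 6.73% of all rows tested. In KO 62 were lower and 3 higher, against 2.85% and 4.27%. These counts rested on single libraries. WT had 51 lower rows without its 6 h replicate 3, 3 and 2 without its 6 h replicates 1 and 2, and 7 and 5 without WT male vehicle replicates 1 and 3. KO had 3 without KO male vehicle replicate 3, and 2 without its 6 h replicate 2 or 3. Of the 62 rows in KO, 56 were among the 105 rows highest in that vehicle library, and without the 3 libraries 8 of 45 were. When only the 2 groups compared entered the fit, 0 rows were called in either genotype, and limma voom gave 56 lower in WT and 55 in KO.

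Without the 3 libraries, leaving 2 mice of each genotype at 6 h, WT had 56 rows lower and 5 higher, against 10.2% and 10.7% of all rows tested. KO had 45 lower and 4 higher, against 6.7% and 7.03%. The summed CPM was 12256, 11286 and 19372 in the WT mice and 17715, 12310 and 11550 in the KO mice. WT replicate 3 and KO replicate 1 lay within the vehicle ranges of both sexes together and the other 4 below them. The lowest male vehicle sums were 19493 in WT and 19025 in KO, above every 6 h mouse of the same genotype.

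Single rows showed the same split among the 6 h mice. Row 9128 had 22.2, 22.0 and 144 CPM in WT mice 1 to 3, against 166, 178 and 209 in WT male vehicle libraries. It changed by -1.60 (SE 0.51, edgeR adjusted p 0.0434). Row 2609 had 19.7, 18.9 and 58.2 CPM against 86.8, 62.5 and 95.2, a change of -1.39 (SE 0.40, edgeR adjusted p 0.0262). Row 2936 was higher in both genotypes, with 685, 728 and 340 CPM in WT and 307, 603 and 663 CPM in KO, against vehicle males at 298 to 320 in WT and 227 to 307 in KO. Its changes were 0.86 in WT (SE 0.21, edgeR adjusted p 0.01) and 0.92 in KO (SE 0.21, edgeR adjusted p 0.0108). Row 11743 was also higher in WT at 6 h, at 6.10, 4.90 and 0.263 CPM (3.74, SE 1.06, edgeR adjusted p 0.0237). Row 11784 was higher in KO by 1.88 (SE 0.40, edgeR adjusted p 0.00667), with 86.8, 441 and 343 CPM against 87.2, 71.5 and 64.3.

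Among rows called in KO at 6 h with an average log2 CPM of at least 1, rows 13650 and 11662 had the most negative changes. Row 13650 had 1.06, 0.431 and 1.13 CPM at 6 h and 1.84, 10.0 and 142 CPM in KO male vehicle replicates 1 to 3. Row 11662 had 0.453, 0.575 and 0.422 CPM at 6 h and 10.5, 0.170 and 60.6 CPM in those vehicle libraries. Their log2 fold changes were -5.97 (SE 1.42, edgeR adjusted p 0.0128) and -5.68 (SE 1.62, edgeR adjusted p 0.0333). Without the 3 libraries the adjusted p by edgeR was 0.199 and 0.266, and neither row was called.

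Between 6 h and 24 h in males of both genotypes, 56 rows were lower at 6 h and 13 higher by edgeR, against 9.08% and 8.08% of all rows tested. Without the 3 libraries, 98 were lower and 9 higher, against 13.3% and 9.85%. Of the 56 lower rows, 48 were among the 105 described above, and without the 3 libraries 60 of 98 were. Row 219 had 3.56, 4.16 and 1.05 CPM in WT and 1.81, 4.46 and 1.69 in KO at 6 h. At 24 h the 4 WT males had 22.8, 22.9, 8.67 and 66.0 CPM and the 4 KO males 24.9, 39.1, 58.1 and 190. Row 219 was lower at 6 h than at 24 h by 4.33 on the log2 scale, without overlap (SE 0.81, edgeR adjusted p 0.000492). Its male vehicle libraries had 1.63 to 4.94 CPM in WT, a range that overlaps 6 h, and 4.77, 11.5 and 188 in KO. Row 10742, at 0 to 0.921 CPM at 6 h and 1.73 to 48.0 in males at 24 h, changed by -4.57 (SE 0.91, edgeR adjusted p 0.00093). The male vehicle libraries of row 10742 had 0.742 to 1.83 CPM in WT and 1.54, 4.58 and 53.1 in KO. Among rows called with an average log2 CPM of at least 1, rows 11784 and 2936 were the highest at 6 h relative to 24 h, with changes of 1.32 (SE 0.25, edgeR adjusted p 0.000614) and 0.75 (SE 0.14, edgeR adjusted p 0.000418).

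At rest, sorted KO and WT cells were not distinguished in these rows by edgeR, with 0 called lower and 0 higher. The background was 0.00652% lower and 0.0196% higher among all rows tested. At an unadjusted p under 0.05, 2 rows were lower and 49 higher in KO, and without KO male vehicle replicate 3 the counts were 3 and 2. DESeq2 and limma voom each called 1 row lower and 0 higher, and the row was 15292, named here after its values were seen.

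Row 15292 had 3926.5 to 4501 CPM in the 6 WT vehicle libraries and 1566 to 2678 CPM in the 6 KO vehicle libraries. The groups did not overlap, with means of 4211 ± 210 (SD, n = 6) and 2225 ± 374 (SD, n = 6). The log2 fold change of KO against WT was -0.89 (SE 0.20), and its adjusted p by edgeR was 0.326 over all rows tested. Over 23 ways of fitting, the change ran from -1.08 to -0.80 and the row was called in 7 of them. The adjusted p by edgeR was 1.01e-06 when the 3 libraries were left out, and 0.817 without KO male vehicle replicate 3 alone. At 24 h the WT libraries had 2726 to 3398 CPM and the KO libraries 1503 to 1852, again without overlap. The change with LPS at 24 h was -0.34 in WT (SE 0.18, edgeR adjusted p 0.179) and -0.33 in KO (SE 0.19, edgeR adjusted p 0.224). In vehicle cultures, where WT chose the row, the means were 315 CPM in WT and 135 CPM in KO.

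Male and female sorted vehicle libraries gave 0 rows lower and 0 higher in males by edgeR, against 0.0261% and 0.0326% of all rows tested. At an unadjusted p under 0.05, 3 rows were lower and 52 higher in males, and 3 and 1 without KO male vehicle replicate 3. DESeq2 called 2 rows higher and limma voom 0.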

How the data were processed

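RNA was measured in 34 culture and 33 sorted libraries. The deposited files hold raw counts, whole numbers that the authors did not normalize. Per the submitters' processing notes, which give neither order nor settings, the build was GRCm38 and the tools were STAR 2.7.10a, Salmon 1.10.1 and Trim Galore 0.6.7. Libraries were made from 100 ng of RNA in culture and 0.97 ng in sorted cells, per the labels' protocols. Groups follow the labels. A sheet deposited with the sorted counts calls the cells cultured, and the labels were followed.

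CPM was computed from column sums. Tests on each table used edgeR 4.0.16 in R 4.3.3 (glmQLFit, quasi-likelihood F) with TMM, filterByExpr (minimum count 10, minimum total 15) and 1 mean per group of genotype, sex and treatment, with sexes weighted equally. Tests were two-sided, with Benjamini-Hochberg adjustment over all rows tested, and rows were called under 0.05. Standard errors are the absolute fold change over the root of F. RLE, DESeq2 1.42.0, limma 3.58.1, other fits and left-out libraries were tried as alternatives.

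The members, lists and rules were chosen with earlier results of these data known. The rows named were the 2 ranked first, those at the edge, the 2 with the most counts in WT vehicle cultures, and in each comparison the 2 called rows with the most negative and the 2 with the most positive fold change among those whose average log2 CPM reached 1. Row 15292 at rest was added after its values were seen, as was the omission of the 3 libraries. On simulated counts, the script recovered 72 of 100 2-fold and 99 of 100 4-fold changes for Tg+PDBu in KO cultures, with 6 false calls among 15352 rows. For WT at 24 h in sorted cells it recovered 62 and 89 of 100, with 11 false calls among 14928 rows. The changes were put only into rows whose log2 mean CPM was at least 1. Counts were drawn independently for each library, with no library set apart, so these figures need not hold for the real libraries. No 2 libraries of a group agreed within sampling noise, with chi-square per degree of freedom of at least 11.9. Without molecular identifiers, counts include copies made by PCR.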

Additional observations from a re-analysis of the deposited data

Results flagged for a closer look

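In groups of 4 to 10 libraries, the highest or lowest library was checked for a gap to its nearest neighbour beyond Dixon's limit. Of 60 checks 8 met it, and chance flags about 1 in 20. Over the 200 rows, WT Tg+PDBu male culture replicate 3 had a median log2(CPM + 1) of 2.38, against 2.86 to 3.14 in the other 5. Sorted KO male vehicle replicate 3 had a median of 5.75, against 3.18 to 3.46 in the other 5. The summed CPM of sorted WT male 24 h replicate 2 was 15960, against 13550 to 14484 in the other 7.

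Row 7999 had 5.42 CPM in KO LPS male culture replicate 3, against 0.381 to 0.977 in the other 4. Row 4892 had 23.0 CPM in sorted KO male 24 h replicate 1, against 5.75 to 11.1 in the others. Row 4926 had 141 CPM in sorted KO female 24 h replicate 1, against 54.3 to 80.0 in the others. The same row had 186 CPM in sorted WT male vehicle replicate 2, against 122 to 144 in the others. Row 8373 had 919 CPM in KO vehicle female culture replicate 1, against 575 to 655 in the others.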

How the results depend on the processing

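Among the counts of called rows recomputed under other settings, 478 stayed within 1.5 times of the reported count and 52 did not. Among values of named rows, 477 kept their call, 41 lost it and 0 changed direction. The lost calls were all in sorted cells, at 24 h only for rows 8383 and 11743 within the second run of library numbers. The causes were not tested. For Tg+PDBu against LPS in KO cultures, 16 rows were higher with the compared groups alone, and single omissions gave 31 to 48 lower and 7 to 13 higher. There, the lone culture that some omissions leave was assumed to vary like the other groups. Higher rows at 24 h numbered 18 in WT within the first run. In KO they numbered 15 with the compared groups alone, 40 with limma voom, 12 and 15 within the first and second runs, 44 without the 3 libraries that stood apart, and 14 to 43 with single omissions. At 6 h, WT had 29 lower rows by DESeq2, 56 by limma voom, 0 with the compared groups alone, 53 without both vehicle-like 6 h libraries, 56 without the 3 libraries and 2 to 51 with single omissions. Higher rows there were 5 by limma voom, 0 with the compared groups alone, 4 without both 6 h libraries, 5 without the 3, 4 with members chosen without WT female culture 3, and 0 to 3 with single omissions. KO at 6 h had 0 lower and 0 higher with the compared groups alone, 95 lower without both 6 h libraries, and 2 to 89 lower and 0 to 4 higher with single omissions. Rows lower at 6 h than at 24 h numbered 85 without both 6 h libraries and 98 without the 3. Between genotypes at rest, 1 row was lower by DESeq2, limma voom, the compared groups alone, no filter, within the first run, within the second run and without the 3 libraries, and 2 were higher within the second run. Between sexes in sorted vehicle libraries, 2 rows were higher by DESeq2, 2 with the run as a term and 5 within the second run.

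Libraries of different treatments within the same genotype and sex that shared a number were not paired by the labels. In culture, same-numbered libraries had a median correlation of deviations of 0.22 and 29 of 30 pairs were over 0.1, against a median of -0.10 for different numbers. In sorted cells the same-number median was -0.00. With the culture number as a replicate block, 188 rows were lower with Tg+PDBu and 177 with LPS, and 58 were lower and 13 higher for Tg+PDBu against LPS. With the title number as a replicate block in sorted cells, 34 were lower and 22 higher at 24 h in WT, 29 and 21 in KO, 11 and 2 at 6 h in WT, 47 and 3 in KO, and 39 and 11 for 6 h against 24 h.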
